A study of Dicentrarchus labrax with 35 samples.

Results

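In the testes of 3 of the 5 fish switched from fast to slow growth (FS1, FS2 and FS4), 300 target sequences stood apart. Pooled over the other groups, their mean level was about the same at both ages in the matrix that chose them, while single groups could differ. This flatness depended on the normalization, as described at the end. Of the 300, 184 were higher and 116 lower in FS1, FS2 and FS4 than in the pooled other groups of the same age. Each target sequence, a stretch of sea bass transcript for which the array holds 1 or more probes, was represented by 1 probe. The 300 were taken from 11705 target sequences with 24200 probes. For every probe, A was the mean log2 level of the 15 arrays of the younger fish (F and S), B the mean of the 15 arrays of FF, SF and SS, and C the mean of FS1, FS2 and FS4, all in the log2 matrix that the authors deposited. Probes were kept when B differed from A by less than 0.25 and C differed from B by at least 1, 1 probe was kept per target sequence, and the 300 with the largest difference between C and B were retained. A difference of 1 on the log2 scale is a 2-fold change. Of 9703 probes that were flat with age by this measure, 1222 passed the second condition (757 higher and 465 lower), which left 757 target sequences. The differences at the margin were almost the same, with 1.531 and 1.528 in size for the last members inside and 1.528 and 1.527 for the first outside. The measured values chose both the members and the 3 fish, so the differences of FS1, FS2 and FS4 and the flatness with age are given below as descriptions with no test.

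European sea bass (Dicentrarchus labrax) is a farmed marine fish with separate sexes, in which the gonad stays undifferentiated for months after hatching and the future sex is tied to body growth as well as to genes. A gonad is a mixture of germ cells and of the somatic cells that nurse them and make steroid hormones, and the share of each cell type changes as the testis forms. In many fish a shortage of food slows growth and gonad development. In RNA from whole gonads, a lower level of a transcript can come from fewer cells of the type that makes it or from less RNA in each cell, and these cannot be told apart here. The files used here give no gene for a probe, and the probe names had no match among the RefSeq genes of the species, so the members are described by their behaviour and by probe identifier, and the tissue could not be checked against marker genes.

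Gonads of 35 fish were measured, each on an array of its own labelled with a single dye. At T1 (133 days) there were 7 fish of group F, the longest of a size-graded population, and 8 of group S, the shortest, all with undifferentiated gonads and all fed without limit until then. At T2 (332 days post fertilization in the sample labels) there were 5 males of each of 4 groups, with testes that held no spermatozoa by the histology of the study: FF and SF had been fed without limit since T1, and FS and SS had received restricted food, the first letter of each name giving the growth before T1 and the second the growth after it. Each of these groups came from 1 tank. The arrays are numbered by the sample titles, and levels are log2 values computed from the scanner output after background correction and quantile normalization of all arrays together.

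Over the sea bass spots, 43.2 to 74.4% were well above background on the T1 arrays, 67.2 to 87.8% on the FF, SF and SS arrays and 71.8 to 85.3% on the FS arrays. FS1 to FS4 lay on 1 slide and FS5 on another with SF1, SF2 and SF3, so that slide and group overlap. All F arrays, S1 to S4 and FF2 were scanned on 1 day, and S5 to S8 and the other T2 arrays on another. Scan day therefore overlaps with age and, in part, with F and S. The slide of FS1 to FS4 had the most spots marked as outliers by the scanner software (213, 180, 133 and 114 spots, against 15 to 122 on the FF, SF and SS arrays), and these spots were left out. No 2 arrays held identical values (highest correlation 0.989).

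Among the 184 rises, the median difference of FS1, FS2 and FS4 from the FF, SF and SS arrays was 1.96 on the log2 scale, or 3.90-fold, and the largest was 8.06. Among the 116 falls it was -1.85, or 3.60-fold lower, and the largest was -3.76. The rises had the longer tail. In the matrix that chose them, 93 rises and 33 falls differed by at least 2, 24 rises and 6 falls by at least 3, and 10 rises and 0 falls by at least 4. On single arrays the median deviation of the rises from the mean of the 15 FF, SF and SS arrays was 1.89 in FS1, 2.04 in FS2 and 2.01 in FS4, and that of the falls was -1.64, -2.00 and -1.96. The same 15 arrays, set against their own mean, had medians from -0.19 to 0.10 over the rises and from -0.45 to 0.30 over the falls. FS1, FS2 and FS4 all lay above each of those 15 arrays at 181 of 184 rises and all below them at 108 of 116 falls. By the same measure 16.6% of all probes were above and 17.0% below, and since the rule used this contrast nothing is read from these counts.

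**Figure D1:**
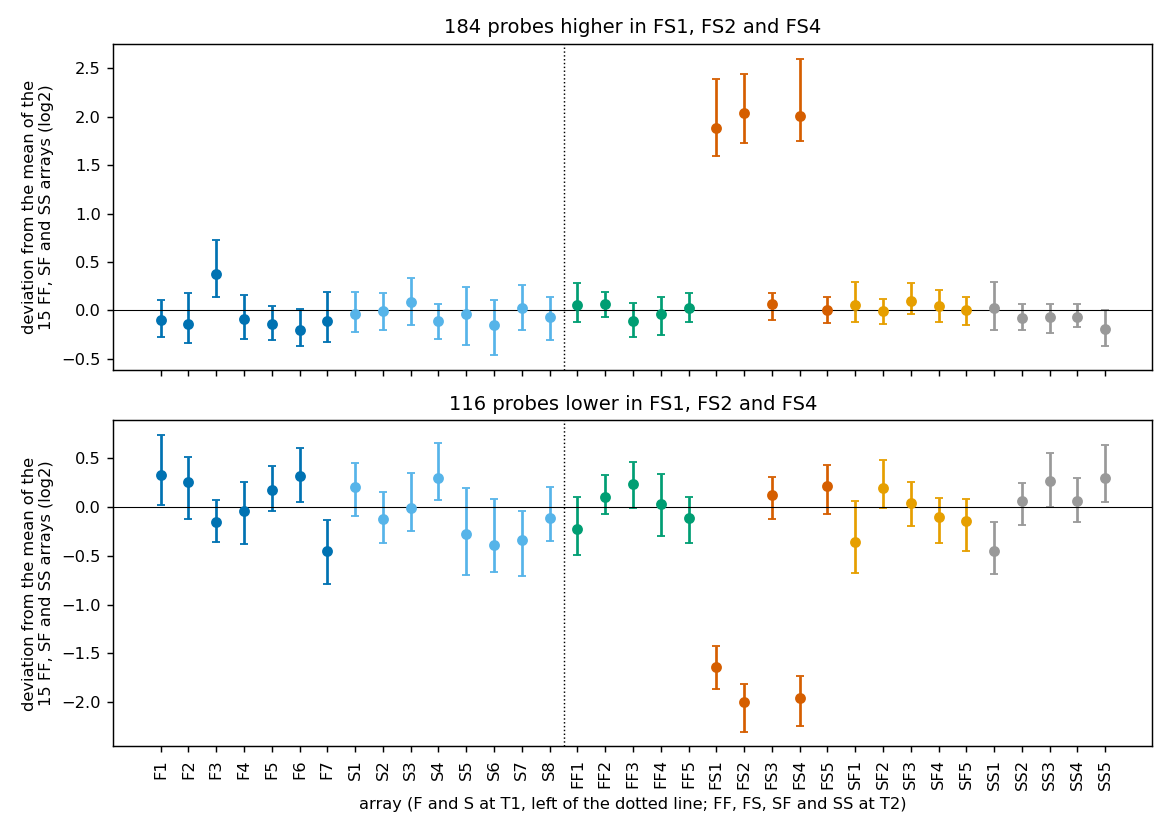
Deviation of each of the 35 arrays from the mean of the 15 FF, SF and SS arrays (log2 units), over the 184 rises (upper panel) and the 116 falls (lower panel); points are medians and bars run from the lower to the upper quartile over probes. FS1, FS2 and FS4 have medians between 1.89 and 2.04 for the rises and between -2.00 and -1.64 for the falls, FS3 and FS5 lie with the other T2 arrays, and F3 is the highest T1 array in the upper panel.

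The 3 divergent testes resembled each other in the size of the change. Over the 181 rises with a value in all 3, the deviations of FS1 and FS4 had a Pearson correlation of 0.93, those of FS1 and FS2 of 0.83 and those of FS2 and FS4 of 0.84. Over the 116 falls the correlations were 0.76 to 0.83. These correlations run across probes that were all chosen for a large mean deviation of the same arrays, and the arrays share the subtracted mean, so they are descriptions only. The range between the highest and the lowest of the 3 had a median of 0.41 over the rises and 0.46 over the falls, and it was less than 0.5 times the mean difference at 177 of 181 rises and 108 of 116 falls. FS1 had the smallest changes. It was the farthest from the other groups at 35 rises and 4 falls, against 70 and 58 for FS2 and 79 and 54 for FS4.

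The rises and the falls came from different parts of the range of levels. The rises had a median level of 8.75 on the FF, SF and SS arrays (quartiles 7.96 and 10.03), close to the 8.50 of all probes, and 11.13 in FS1, FS2 and FS4. The falls started from a median of 11.44 (quartiles 10.58 and 12.26) and reached 9.53. At T1 the medians were 8.79 and 11.42. Of the 184 rises, 87 were well above background on all 35 arrays and 182 on FS1, FS2 and FS4, 3 were well above background on none of the FF, SF and SS arrays, and 7 on none at T1. Of the 116 falls, 108 were well above background on all 35 arrays. Most falls therefore remained measurable in FS1, FS2 and FS4. The median SD across the 15 FF, SF and SS arrays was 0.25 for the rises and 0.43 for the falls, and across the 15 T1 arrays it was 0.35 and 0.53.

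**Figure D2:**
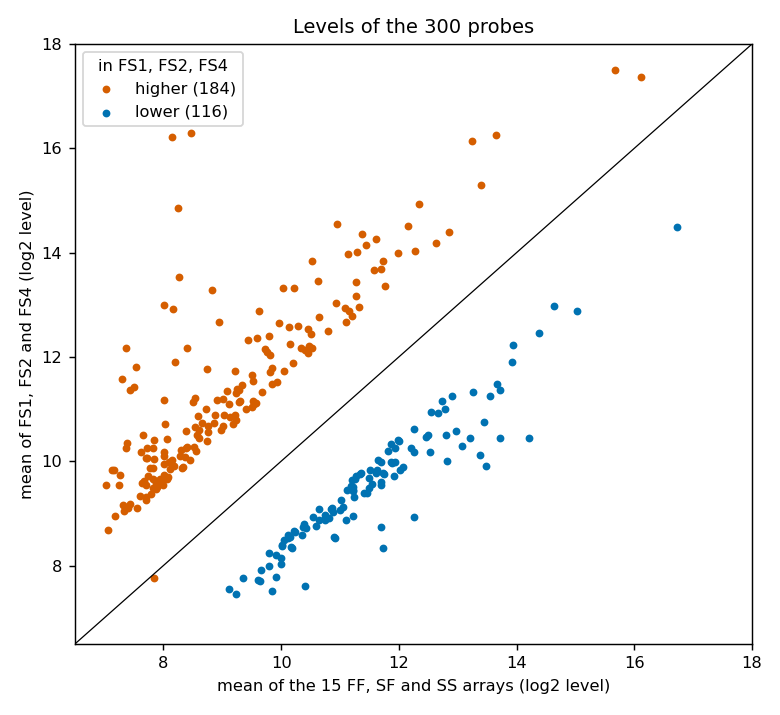
Mean log2 level of each of the 300 probes in FS1, FS2 and FS4 (vertical axis) against that of the 15 FF, SF and SS arrays (horizontal axis), with the line of equal levels. The 184 rises start at a median of 8.75 and the 116 falls at a median of 11.44, and a few rises from near 8 reach levels above 14.

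The probes with the largest rises were dim in most fish and bright in FS1, FS2 and FS4. The 3 largest are described by rank, since they were chosen after their values were seen and lie outside the rule for named probes. The leading rise had log2 levels of 15.60 in FS1, 16.40 in FS2 and 16.64 in FS4, against 8.19 in FS3 and 7.89 in FS5. On the 15 FF, SF and SS arrays it lay between 7.75 and 8.93 (median 7.99), all well above background, so that the mean of FS1, FS2 and FS4 was 267-fold higher. The levels of the divergent fish and of the other T2 fish did not overlap. At T1 the median was 7.67, but F3 had 13.16 and S3 11.67, while the other 13 gonads did not exceed 7.93. The target of this probe had 3 other probes, which were 7.51 to 7.92 higher in FS1, FS2 and FS4. The targets of the next rises had no other probe. The rise of rank 2 had 16.03, 16.17 and 16.66 in FS1, FS2 and FS4, 8.74 in FS3 and 8.00 in FS5, and 7.50 to 9.54 (median 8.41) on the FF, SF and SS arrays. The rise of rank 3 had 14.84, 14.43 and 15.27 in FS1, FS2 and FS4, 8.42 in FS3 and 7.60 in FS5, and 7.96 to 8.74 (median 8.20) on the FF, SF and SS arrays. Both were again raised at T1 in F3 (12.91 and 13.01) and S3 (10.47 and 11.55) alone, with the other 13 gonads at or below 8.27 and 7.95. At T1 these probes were well above background on 4, 4 and 3 of 15 arrays.

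Because 2 of the 15 T1 gonads lifted the mean A, these 3 probes were flat with age only with F3 and S3 included. In the matrix, the difference between B and A was -0.09, 0.14 and 0.09 for the 3, and without F3 and S3 it was 0.55, 0.66 and 0.72, outside the limit of 0.25. Of all 184 rises, 166 stayed within the limit without F3 and S3, and the other 18 were higher at T2. Of the 116 falls, 107 stayed within it.

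By the rule for named probes, the 2 rises and 2 falls with the largest changes among members that were well above background on all 35 arrays are given by identifier. CUST_3925_PI416070213 had log2 levels of 12.58 in FS1, 12.89 in FS2 and 12.53 in FS4, 8.55 in FS3 and 8.60 in FS5. The FF, SF and SS arrays lay between 7.91 and 10.19 (median 8.85) and the T1 arrays between 8.21 and 10.09 (median 8.98). The divergent fish were above all of them, by 3.72 over the T2 mean or 13.2-fold, and FS3 and FS5 lay within the other groups. CUST_7541_PI416070213 had 14.27, 14.73 and 14.63 in FS1, FS2 and FS4, 10.47 in FS3 and 10.58 in FS5, against 10.47 to 11.56 (median 10.92) on the FF, SF and SS arrays and 10.58 to 12.52 (median 11.01) at T1, where F3 was the highest. The difference from the T2 mean was 3.59. Each of these targets had 2 other probes, which rose by 3.46 and 3.67 for the first and by 1.54 and 3.33 for the second.

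Among the falls, CUST_8223_PI416070213 had log2 levels of 10.83 in FS1, 10.41 in FS2 and 10.10 in FS4, 13.59 in FS3 and 14.33 in FS5. The FF, SF and SS arrays lay between 13.08 and 15.21 (median 14.54) and the T1 arrays between 11.97 and 15.11 (median 14.39). The divergent fish lay below every other array, 13.5-fold lower than the T2 mean, and the T1 gonads varied by more than 3 log2 units. The other 2 probes of its target differed by -3.29 and -3.62. CUST_4190_PI415922062, the only probe of its target, had 9.96, 9.89 and 9.86 in FS1, FS2 and FS4, 13.59 in FS3 and 14.30 in FS5, against 12.67 to 14.27 (median 13.59) on the FF, SF and SS arrays and 11.83 to 14.01 (median 13.45) at T1. The difference from the T2 mean was -3.58, and the divergent fish did not overlap with any other array. None of the 4 probes passed the test in any of the 4 comparisons described below (limma, adjusted p between 0.226 and 0.991).

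**Figure D3:**
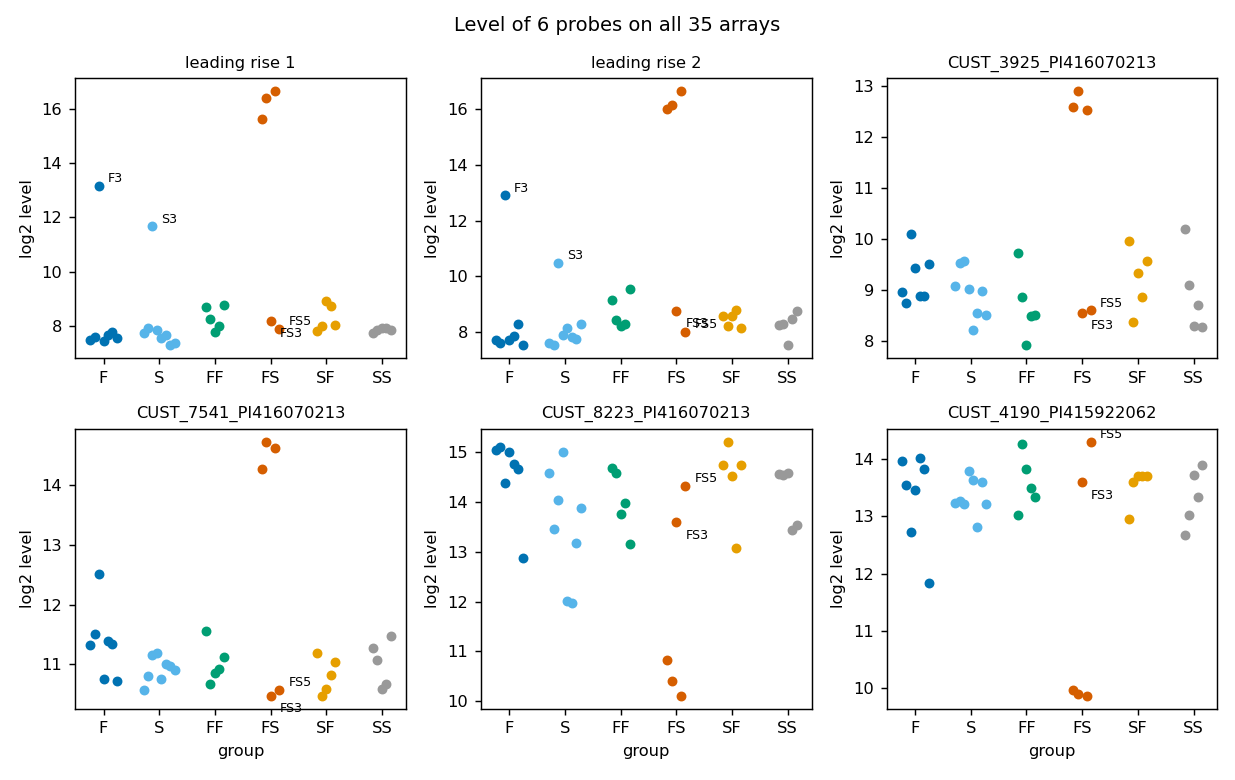
Log2 level of the 2 leading rises and the 4 named probes on all 35 arrays, by group (F and S at T1, FF, FS, SF and SS at T2); each point is 1 fish. In every panel FS1, FS2 and FS4 are apart from the other 32 arrays and FS3 and FS5 are not, and in both panels of the leading rises F3 and S3 are raised above the other T1 fish.

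Other probes against the same targets gave a further reading of the same RNA on the same arrays. The rule left them aside because they changed less or because they were not flat with age. Of the rises, 162 had other probes, 325 in all, and 317 of these were higher in FS1, FS2 and FS4, 311 of them (95.7%) by at least 1, with a median of 1.81 against 1.94 for the members themselves. Of the falls, 50 had other probes, 101 in all, and 99 of these were lower, 90 of them (89.1%) by at least 1. The probes of a target agreed on this difference in most cases, but not in all. The least concordant probe of a rise had a difference of -3.56. Agreement on flatness with age was less frequent. Of the 325 other probes of the rises 219 were flat with age, and of the 101 of the falls 70 were. Targets with a single probe were 22 of the 184 rises and 66 of the 116 falls (56.9%), against 46.5% of all targets. Such targets were also few among all targets at least 1 higher in FS1, FS2 and FS4 (17.2%) and more common among those at least 1 lower (54.5%), so the contrast was not particular to the members that were flat with age.

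FS1, FS2 and FS4 lay beyond all the other 32 arrays at 175 of 184 rises and 102 of 116 falls, and some other gonad reached them at the rest. At 7 rises and 10 falls this was a T1 gonad. The rule used this contrast, and the share of all probes was not computed for the 32 arrays, so nothing is read from these counts. The examples that follow were chosen after their values were seen. Among the rises, F7 had 12.20 at rank 107, against 11.26, 11.63 and 11.47 in FS1, FS2 and FS4, and 13.10 at rank 248, against 12.52, 12.88 and 12.95. At rank 185, SS1 with 10.65 lay between FS1 (10.45) and FS2 (10.69). Among the falls, the one of rank 274 had 7.62, 7.80 and 7.85 in FS1, FS2 and FS4, above the 7.37 to 7.49 of FF2, FF3, FF4, FF5 and SF2. Its levels on the FF, SF and SS arrays were highest in FF1 (11.71), SF1 (12.56), SF5 (10.17), SS1 (13.61) and SS2 (13.36). At ranks 175 and 222 FS1 (9.32 and 8.54) lay above FF2 (8.41 and 8.39).

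At a few rises the 3 divergent testes were not alike or not alone. The rise of rank 61 depended on a spot of FS2 that the scanner software marked as an outlier. With that spot left out the difference was -0.08, against 2.49 in the matrix. The rise of rank 198 was high in FS2 alone, with 12.81 against 7.55 in FS1 and 7.19 in FS4, which lay among the other T2 fish. The rise of rank 36 had its highest level in FS3, with 11.71, against 10.29 in FS1, 10.67 in FS2 and 9.82 in FS4. In FS5 it was 7.38, and on the FF, SF and SS arrays it lay between 7.14 and 7.57. The other 299 members differed by at least 1 in the scanner values, in the direction of the matrix, and 297 of 300 remained flat with age.

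FS3 and FS5, which had the same food history as FS1, FS2 and FS4 and were not used by the rule, lay among the FF, SF and SS testes. Over the rises the median deviation from the mean of those 15 arrays was 0.06 in FS3 and 0.01 in FS5, and over the falls it was 0.12 and 0.22, in the direction opposite to that of the other FS fish. Of the 184 rises, FS3 was above all 15 arrays at 8 and FS5 at 6, where 4.33% and 5.20% of all probes were so. Of the 116 falls, FS3 was below all 15 at 2 and FS5 at 1, where 3.36% and 4.57% of all probes were so. A rise of at least 1 was found at 1 rise in FS3, the one of rank 36, and at 0 in FS5, where 0.2% and 1.1% of all probes rose so far. A fall of at least 1 was found at 4 falls in FS3 and at 1 in FS5. The share of all probes was not computed for falls of this size, so nothing is read from those 2 counts. Across the rises the deviation of FS3 had no relation to the size of the change (Pearson correlation with the difference between C and B 0.02 in FS3 and -0.26 in FS5, 184 probes, description only). FS3 lay on the same slide as FS1, FS2 and FS4, and within that slide those 3 differed from FS3 by a median of 1.96 over the rises and -1.96 over the falls. FS5 differed from the SF arrays of its own slide by -0.06 and 0.24. The split of the FS group was made from these values, so no group was tested, and what else set FS3 and FS5 apart was not tested.

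As a group of 5, FS had therefore a wide spread at these probes. For the leading rise its mean was 12.94 ± 4.50 (SD, n = 5), against 8.30 ± 0.43 in FF, 8.30 ± 0.50 in SF and 7.85 ± 0.07 in SS (SD, n = 5 each). For CUST_4190_PI415922062 it was 11.52 ± 2.23, against 13.59 ± 0.48 in FF, 13.53 ± 0.33 in SF and 13.33 ± 0.50 in SS (SD, n = 5 each). Neither mean describes a fish of the group.

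At some of the rises, single T1 gonads were raised as well. Among the undifferentiated gonads of T1, F3 had a median deviation from the T1 mean of 0.42 over the 184 rises, and the other 14 gonads lay between -0.17 and 0.07. F3 had the highest level of the 15 at 69 rises (37.5%), against 6.70% of all probes, and was at least 1 above the mean at 28 rises, against 1.91% of all probes. The share grew with the size of the change. F3 was highest at 25 of 91 rises under 2, at 44 of 93 of at least 2 and at 20 of 24 of at least 3, where its median deviation was 1.47. Across the 184 rises its deviation had a Pearson correlation of 0.85 with the difference between C and B, and S3 one of 0.76. These are descriptions across probes chosen by that difference, and the leading 3 weigh heavily in them. The mean A included F3 and S3, and without them 18 of the 184 rises were not flat with age. Among the rises of at least 2 they were 10 of 93, and among those of at least 3 they were 6 of 24. The counts and correlations of F3 and S3 therefore rest in part on members that the rule kept through these 2 arrays. They were not computed without those members, so nothing is read from the growth with size. S3 had a median deviation of 0.07 over all rises and 0.53 over the 24 of at least 3, under the same limit. It had the highest level of the 15 at 10 rises, against 2.44% of all probes, and was at least 1 above the mean at 8, against 1.38%. F3 and S3 were the highest 2 of the 15 gonads at 31 rises (16.8%) and at 14 of the 24 largest (58.3%), and at 1.46% of all probes. The pattern did not extend to the falls, where the median deviation was -0.14 in F3 and 0.07 in S3.

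**Figure D4:**
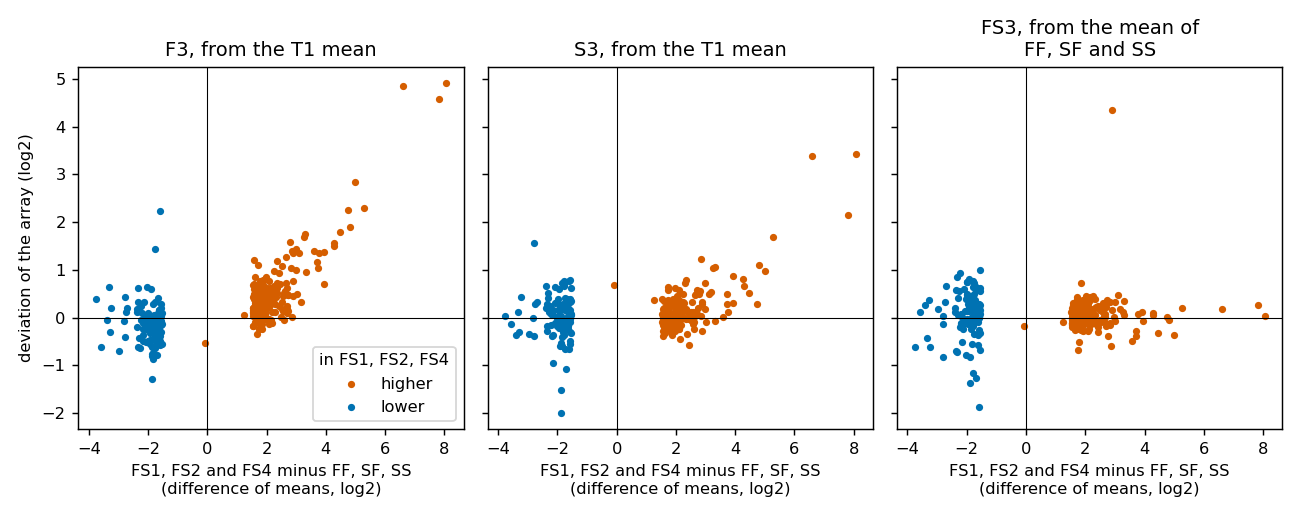
Deviation of single arrays (vertical axis, log2) against the difference between the means of FS1, FS2 and FS4 and of FF, SF and SS (horizontal axis, log2) for the 300 probes, with F3 and S3 set against the T1 mean and FS3 against the mean of the 15 FF, SF and SS arrays. Over the rises, F3 rises with the size of the change (correlation 0.85) and S3 does so mainly at the larger ones. FS3 stays near 0 apart from 1 probe at 4.35. The rule kept some of the rises through F3 and S3, so the correlations are descriptions only and nothing is read from a growth with size.

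F3 was also raised at probes that changed with age. At the 1636 other probes that were at least 1 higher in FS1, FS2 and FS4 but not flat with age, its median deviation was 0.30 and it was the highest T1 gonad at 32.3%, so the resemblance was not particular to the flat ones. F3 and S3 lay on different slides, neither of them that of any FS array. The share of spots well above background was 49.8% on F3 and 58.2% on S3, and the number of spots marked as outliers was 80 and 82, within the range of the other T1 arrays (43.2 to 74.4% and 65 to 148).

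The falls varied among the T1 gonads in another way. F7 had a median deviation of -0.45 over the 116 falls and S5, S6 and S7 had -0.27, -0.40 and -0.36, while F1, F6 and S4 had 0.36, 0.31 and 0.37. Among the 116 falls, 16 were at least 1 below the T1 mean in F7, 19 in S5, 12 in S6 and 10 in S7, against 2.95, 3.44, 2.05 and 1.87% of all probes. S5, S6, S7 and S8 shared a slide and were scanned on another day than the other T1 arrays. S8 had a median of -0.11, and F7 lay elsewhere. The part of the slide and of the scan day in this was not tested. No T1 gonad came near the -1.64 to -2.00 of the divergent testes.

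Between the ages the median change over the members was small from F to FF, from S to SF and from S to SS, while the rule limits the pooled means only. The change from F to FS is not included here. In absolute size the median change was 0.17 to 0.18 over the rises and 0.22 to 0.24 over the falls. The median change over the rises was -0.01 from F to FF, 0.06 from S to SF and -0.05 from S to SS, with single probes between -0.63 and 0.79. Over the falls it was -0.05, 0.00 and 0.15, with single probes between -1.03 and 0.95. At most 1 fall, from S to SF, changed by at least 1, where 16.8 to 17.9% of all probes did. The rule kept this count low through the pooled means of the same arrays, so nothing is read from it.

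Differences between groups that the rule did not use were tested with limma over all 24200 probes, at a fold change of at least 1.5 and an adjusted p (Benjamini-Hochberg) under 0.01. These comparisons ask whether the same transcripts moved with the growth history. F vs. S contrasts early growth at T1, and SF vs. FF contrasts it at T2 after the same unlimited food. FF vs. SS contrasts sustained fast with sustained slow growth. SF vs. SS contrasts a switch to fast growth with sustained slow growth. In none of these comparisons was a member called. Of all probes, 0 were called in F vs. S, 24 (0.0992%) in FF vs. SS, 0 in SF vs. SS and 0 in SF vs. FF. At an unadjusted p under 0.05 there were 56 of 300 members in F vs. S, where 20.4% of all probes passed, 58 in FF vs. SS (18.8% of all probes), 56 in SF vs. SS (17.8%) and 17 in SF vs. FF (5.80%), so the members passed about as often as the rest of the array.

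Among those with an unadjusted p under 0.05, 35 of 44 rises were higher and 10 of 14 falls lower in FF than in SS, and 35 of 41 rises were higher and 12 of 15 falls lower in SF than in SS. Of all probes that passed, 58.8% were higher in FF than in SS and 54.3% higher in SF than in SS. Both comparisons share the SS arrays. With the processed signal scaled to the 75th percentile, 7 of 14 rises and 2 of 8 falls were higher in FF than in SS. In that setting 14 of 21 rises and 1 of 10 falls were higher in SF than in SS. In F vs. S, 18 of 33 rises and 14 of 23 falls were higher in F, as were 55.4% of all probes that passed, and in SF vs. FF 6 of 7 rises and 3 of 10 falls were higher in SF, as were 52.8%. The member nearest to a call was the same rise in FF vs. SS and SF vs. SS, with 10.83 ± 0.25 in FF, 10.77 ± 0.15 in SF and 9.77 ± 0.23 in SS (SD, n = 5 each), a log2 difference of 1.06 (standard error 0.15, limma adjusted p = 0.0129) of FF over SS and of 1.00 (standard error 0.12, limma adjusted p = 0.0353) of SF over SS. Its mean in FS1, FS2 and FS4 was 12.08. In F vs. S the member nearest to a call was a rise with 8.77 ± 0.46 in F (SD, n = 7) and 8.03 ± 0.24 in S (SD, n = 8), a difference of 0.74 (standard error 0.18, limma adjusted p = 0.091). The SS arrays also had a higher level of the spike-in RNA that is added to each sample (3.29 to 5.60 log2 units above the 75th percentile of the array, against -1.45 to 1.87 in FF and SF). In the authors' matrix, and with control spots kept in the normalization, 3 of 300 members were called in FF vs. SS and 3 in SF vs. SS. Of all 24200 probes, 83 were called in FF vs. SS and 51 in SF vs. SS in the matrix, and 84 and 46 with control spots kept. The part of the spike-in spots in these calls was not tested.

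In size, 1 rise (0.54%) and 4 falls (3.45%) differed by at least 1 between FF and SS, where 1.43% of all probes did, and 0 rises and 6 falls (5.17%) between SF and SS, where 1.14% did. Between F and S there were 1 rise and 4 falls (1.73% of all probes), and between SF and FF 0 rises and 2 falls (0.17%). The median absolute difference was 0.11 to 0.19 for the rises and 0.17 to 0.27 for the falls in these 4 comparisons, against 0.11 to 0.19 for all probes. No FF array shared a slide with an SS or SF array, so that slide and group cannot be told apart in those comparisons. A slide held SF4 and SF5 with SS1 and SS2 and another held F5, F6 and F7 with S1. With the slide as a fixed term, F vs. S rests on S1 alone against F5, F6 and F7, so no count is given. SF vs. SS then rests on SF4 and SF5 against SS1 and SS2, and limma called 0 members and 0 of all 24200 probes. Without the slide term it had also called 0 of all probes, so this cannot test the part of the slide. With S5 to S8 left out, so that all F and S arrays came from 1 scan day, limma called 0 members and 0 of all probes in F vs. S. It had called 0 with them as well, so the part of the scan day is not tested either.

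The names of the targets carry no gene, but they fall into classes by whether they hold a cDN number and which one. Targets with no cDN number in the name made up 43.5% of the rises and 46.6% of the falls, against 28.2% of all targets. Of all targets at least 1 higher or lower in FS1, FS2 and FS4 they made up 43.5 and 39.3%. The names with a cDN number fall into 14 classes. Those with cDN23 were 27 of 184 rises (14.7%) and 0 of 116 falls, against 3.1% of all targets, 9.4% of the targets at least 1 higher and 0.6% of those at least 1 lower. What the classes stand for is not given in the sources used here, and this one was picked after its count was seen. The 27 rises of this class had a median difference of 1.98 in the matrix (1.55 to 5.28), and 6 of them were among the 24 of at least 3. F3 was the highest T1 gonad at 10 of the 27, about the share over all rises (69 of 184, 37.5%).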

How the data were processed

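Arrays were grouped by the sample titles. The authors deposited, for each array, its scanner output (intensity of each spot and of its background, linear scale, Agilent Feature Extraction 10.7.3.1 in the file headers) and a matrix of log2 values, made by normexp background correction and quantile normalization according to the paper. The matrix chose the 300 members. All other values were computed from the median intensities with limma 3.58.1 (R 4.3.3), by normexp with an offset of 50 and quantile normalization over 35 arrays of their 43803 sea bass spots. Spots marked as outliers by the software (2763) were dropped, saturation did not occur, and the median of the spots of a probe was taken. A probe was called well above background when at least 0.5 of its spots were so marked by the scanner software. Pairs of groups were fitted with lmFit and eBayes, without covariates, with Benjamini-Hochberg adjustment over all 24200 probes at the thresholds of the paper. The steps were tested on simulated data. Plots used Python 3.11.15, pandas 2.3.3 and matplotlib 3.10.9.

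The members, the 3 divergent FS arrays and the gene lists were chosen with earlier results of these data known. No probe matched the 30274 genes of the RefSeq table, so the lists of marker and pathway genes could not be used, and by rule the 2 rises and 2 falls with the largest changes among members well above background on all 35 arrays are named. The number of arrays limits the precision. The alternatives were the processed signal scaled to the 75th percentile, an offset of 0, T1 and T2 normalized separately, control spots kept, the authors' matrix, the mean of the spots, a filter on dim probes, other fits, array weights, slide or replicate blocks, thresholds of 1.2 and 0.05, and arrays left out.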

Additional observations from a re-analysis of the deposited data

Results flagged for a closer look

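Within each group of 7, 8 or 5 fish, the highest and the lowest value were compared with the nearest other fish by Dixon's criterion, for the array medians over the rises and the falls and for the levels of the 3 leading rises and the 4 named probes. Of 54 groups of values, 9 had an array that stood apart. Chance gives about 1 in 20 in independent values, but the rule used some of these values, the 3 leading rises were picked after their values were seen and they vary together, so the number of cases is a description and is not set against chance. F3 was this array in 4 cases and S3 in 3. The median deviation of F3 over the rises was 0.42, with the next F fish at -0.03. F3 had 13.16, 12.91 and 13.01 at the 3 leading rises, with the next F fish at 7.76, 8.26 and 7.42, and S3 had 11.67, 10.47 and 11.55, with the next S fish at 7.93, 8.27 and 7.95. F7 had 12.88 at CUST_8223_PI416070213, with the next F fish at 14.39. SF1 had 12.95 at CUST_4190_PI415922062, with the next SF fish at 13.59.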

How the results depend on the processing

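The direction of the difference of FS1, FS2 and FS4 held at nearly all members under other processing, while its size changed. With the processed signal it was 9.13 at the leading rise, against 8.06, and 4.78 at CUST_3925_PI416070213, against 3.72. At the fall CUST_8223_PI416070213 it was -3.29, against -3.76. Which targets the rule kept as flat with age changed much with the processed signal and with separate normalization, and less in other settings. Of all probes, 9703 were flat with age in the matrix, 3921 with the processed signal and 4554 with T1 and T2 normalized separately. How many of the 300 members stayed flat in those 2 settings was not counted. Of the 300 members, 296 to 299 still differed by at least 1 in the same direction in each of the other normalizations. With the rule itself applied to them, the processed signal at the 75th percentile gave 110 rises (36.7%, against 61.3%), or 111 with its median shift with age removed, and shared 119 target sequences (121 with the shift removed), 78 of them by the same probe. T1 and T2 normalized separately moved the median of all probes by 0.661 between the ages and gave 128 rises among 280 members, of which 19 were shared (8 by the same probe), or 179 among 300 with that shift removed, of which 132 were shared (99 by the same probe). The rule gave 171 to 184 rises with an offset of 0, the scanner output, the mean of the spots, control spots kept, the filter on dim probes, or A without F3 and S3. These settings shared 250 to 297 target sequences with the 300 members. Each setting ranks the targets anew, so a member that was not shared may still have been flat. With 1 of FS1, FS2 and FS4 left out of C the rule gave 178 to 190, and with all 5 FS arrays in C 158 among 232. The median deviation of F3 over the rises was 0.84 with the processed signal, 0.50 with an offset of 0 and 0.35 with separate normalization.

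No member was called in F vs. S or SF vs. FF under any setting, F3 and S3 left out together among them. In FF vs. SS, 3 were called with control spots kept and 3 in the authors' matrix, and 1 with all groups but FS in 1 fit, with array weights and at a fold change of 1.2 and adjusted p under 0.05. In SF vs. SS the counts were 3, 3, 1, 2 and 1. With each array left out in turn, 0 to 1 were called in FF vs. SS and 0 to 3 in SF vs. SS, the higher counts without SS1. The causes were not tested. Over all probes the calls moved more. F vs. S had 0 calls, and 94 with all 6 groups in 1 fit, 99 with all groups but FS, 4 with array weights and 10 at the lower thresholds. FF vs. SS had 24, and in the same order 116, 136, 188 and 386, with 47 from the processed signal, 84 with control spots kept, 83 in the authors' matrix, 9 with the filter on dim probes, 0 with the slide as a random block, and 0 to 68 with an array left out (68 without SS1, 0 without any FF array). SF vs. SS had 0, and in that order 64, 65, 115 and 21, with 34 from the processed signal, 46 with control spots kept, 51 in the matrix, 2 with an offset of 0, and 0 to 67 (67 without SS1). SF vs. FF had 0 throughout. Same-numbered samples did not all deviate together (correlations from -0.24 to 0.78), so the numbers were not taken as pairs, although replicate 1 of FF, SF and SS correlated at 0.61 to 0.78, and with the replicate number as a block 0 members were called in each comparison. The arrays that correlated best with their own number in the other group were 1 of 7 in F vs. S, 1 of 5 in FF vs. SS, 2 of 5 in SF vs. SS and 2 of 5 in SF vs. FF. Over all probes the block moved the calls of FF vs. SS from 24 to 0.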
